A study of Mus musculus with 20 samples.

Results

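The immediate early and activator protein 1 (AP-1) genes described here are 10 mouse genes taken by symbol: Fos, Fosb, Fosl1, Fosl2, Jun, Junb, Jund, Egr1, Atf3 and Ier2. They are 10 of the 55471 genes in the deposited gene table, all were found there, and each also has a row in the table of PROMPT regions. A PROMPT (promoter upstream transcript) is a short, unstable RNA made just upstream of a gene's start, and the deposited rows name each PROMPT region by its gene. Total RNA was sequenced from SIMS cells, an immortalised mouse salivary gland line, in 20 libraries that form 5 groups of 4. The groups are unedited wild type, Btbd7 KO (Cas9 knockout of Btbd7, the study's negative control) and Zcchc8 KO clones 1, 2 and 3 (Cas9 knockouts of Zcchc8), all grown in DMEM with 10% fetal bovine serum, so every group was under serum. ZCCHC8 is the scaffold of the nuclear exosome targeting complex, which hands short nuclear RNAs to the RNA exosome for decay, and the series asked which regulatory features gain RNA without it. Each clone is 1 edited line, the labels do not say from how many clones the Btbd7 KO cells came, and the comparisons with wild type all share the same wild-type libraries. The labels do not say whether replicates were separate cultures, so p-values measure only the spread between these libraries.

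FOS and JUN family proteins carry a leucine zipper, pair with each other as dimers and bind DNA as AP-1. JUN proteins can pair among themselves, whereas FOS proteins need a JUN partner. The genes are switched on within minutes of growth factor, serum or stress signals through the MAP kinases, without new protein synthesis, and their mRNAs are short-lived, so their level in a dish depends on how recently the cells were fed or disturbed. EGR1 is a zinc-finger factor of the same early wave, ATF3 is a stress-induced partner of AP-1 proteins, and IER2 is a small nuclear protein induced alongside them.

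The bases just upstream of the start are shown for 4 members, because this is where PROMPTs arise and because Fos, Jun and Junb gained RNA both in the gene and in its PROMPT region, whereas Fosb did not pass the test in either on average. Each run holds the 250 bases before the RefSeq start on GRCm38.p6, written 5′ to 3′ on the gene's strand, at chr12:85473640-85473889 (plus strand) for Fos, chr7:19310046-19310295 (minus) for Fosb, chr4:95052223-95052472 (minus) for Jun and chr8:84978749-84978998 (minus) for Junb. Capitals mark every match to the motifs searched on both strands, which were TGACG (the core of a cAMP response element), TGACATCA (the AP-1 and ATF site known from the Jun promoter), TGANTCA (the AP-1 site), TNACGTCA (a full cAMP response element), TATAAA (the TATA box), CCAAT (the CCAAT box) and the CArG box bound by serum response factor.
Fos: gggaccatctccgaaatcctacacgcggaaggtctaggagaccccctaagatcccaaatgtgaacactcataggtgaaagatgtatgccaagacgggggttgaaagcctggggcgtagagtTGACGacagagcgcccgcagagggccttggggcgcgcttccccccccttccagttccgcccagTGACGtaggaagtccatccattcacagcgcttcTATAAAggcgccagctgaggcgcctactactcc
Fosb: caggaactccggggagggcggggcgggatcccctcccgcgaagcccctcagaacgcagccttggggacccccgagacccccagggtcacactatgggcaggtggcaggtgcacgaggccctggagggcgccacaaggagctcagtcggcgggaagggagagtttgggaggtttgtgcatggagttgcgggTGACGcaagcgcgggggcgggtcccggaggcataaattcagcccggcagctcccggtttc
Jun: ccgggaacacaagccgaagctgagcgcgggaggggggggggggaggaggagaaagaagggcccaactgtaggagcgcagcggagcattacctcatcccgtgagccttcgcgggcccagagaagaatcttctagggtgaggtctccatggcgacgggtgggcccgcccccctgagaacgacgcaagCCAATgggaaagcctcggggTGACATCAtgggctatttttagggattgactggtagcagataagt
Junb: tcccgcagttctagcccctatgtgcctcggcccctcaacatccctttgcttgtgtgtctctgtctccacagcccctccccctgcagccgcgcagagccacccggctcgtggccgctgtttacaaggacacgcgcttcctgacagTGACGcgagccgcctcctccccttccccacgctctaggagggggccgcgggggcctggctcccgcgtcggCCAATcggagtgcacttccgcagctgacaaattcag

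With -1 as the base before the start, Fos held TGACG at -129 to -125 and at -66 to -62 and TATAAA at -33 to -28, Jun held CCAAT at -65 to -61 and TGACATCA at -45 to -38, Junb held TGACG at -106 to -102 and CCAAT at -36 to -32, and Fosb held TGACG at -60 to -56. Egr1 was not looked up, Fosl1 and Ier2 had no RefSeq window, and windows matched the other 7 members by symbol. Of those not printed, Atf3 held TTACGTCA, a match to TNACGTCA that overlaps TGACG on the opposite strand, at -10 to -3, and Fosl2 and Jund held no match to these letters. Over all 32851 windows of the same length, 17.8% held TGACG, 2.93% TGACATCA, 6.75% TGANTCA, 2.52% TNACGTCA, 12.4% TATAAA, 33.8% CCAAT and 1.47% a CArG box. GC content was 58.4% for Fos, 61.2% for Jun, 66.4% for Junb, 68.8% for Fosb, 65.2% for Atf3, 64.4% for Fosl2 and 47.6% for Jund, beside a median of 52.4% over all windows. The RefSeq start lies 1210 bp upstream of the GENCODE start for Jund and 34706 bp downstream of it for Atf3, so their windows need not lie beside the counted PROMPT region. How far a PROMPT region reaches is not given in the sources used here.

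Gene totals ran from 6833258 to 17771804 counts per library and PROMPT totals from 1569548 to 3966608, and all libraries of clone 1 were shallow (6833258 to 7683444 in genes). The PROMPT table holds 19 libraries, without wild-type replicate 1, which also stood apart in the gene table with 14245 genes counted, the fewest of any library. Btbd7 RNA was 202 ± 7.64 CPM (counts relative to the library size, scaled by edgeR's trimmed mean of M-values, TMM) in wild-type cells and 99.2 ± 3.23 CPM after Btbd7 knockout (each SD, n = 4). Zcchc8 RNA was 65.1 ± 2.92 CPM in wild-type cells, and clones 1, 2 and 3 had 60.3 ± 4.28, 23.3 ± 1.35 and 54.6 ± 4.84 CPM (each SD, n = 4). Epithelial keratins were abundant in every group (Krt8 at 749 CPM in wild type), whereas the salivary markers Smgc, Muc19 and Sox10 had no count in any group. Of 8 fibroblast markers, whose summed level was 11.4 to 18.5 CPM in wild type, 22.5 to 35.2 in Btbd7 KO and 10.2 to 14.2, 24.4 to 28.2 and 22.2 to 26.3 in clones 1, 2 and 3, Pdgfrb, Lum and Thy1 were at 0 in all clones. The 3 fibroblast markers tested were all called higher in Btbd7 KO. Of 7 immune markers, summed at 4.52 to 6.19 CPM in wild type, 5.44 to 6.59 in Btbd7 KO and 8.07 to 13.4, 9.26 to 11.1 and 4.09 to 6.76 in the clones, Cd68 made up nearly all of the sum and Adgre1 was at 0 in every group. In bulk RNA, fewer cells of a type and less RNA per cell cannot be told apart. The part of either list in the results below was not tested.

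Per kilobase of exon, Jund and Junb were the highest of the 10 in wild type, at 190 ± 16 and 134 ± 47 CPM per kb (SD, n = 4), and their spreads touch. Ier2 followed at 47.2 ± 7.6 and Fosl1 at 24.3 ± 5.1. Jun, at 8.14 ± 0.87, and Fosl2, at 7.67 ± 0.49, did not differ beyond their spread. Atf3 stood at 3.40 ± 0.62, Egr1 at 1.44 ± 0.68, Fos at 0.420 ± 0.34 and Fosb at 0.152 ± 0.11 CPM per kb, and the spreads of Fos and Fosb overlap. AP-1 RNA in these serum-fed epithelial cells was thus mainly Jund and Junb on the JUN side and Fosl1 and Fosl2 on the FOS side, with little Fos or Fosb.

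The first comparison set the mean of the 3 Zcchc8 KO clones against wild type in the gene table. Fos, Jun, Junb, Egr1 and Ier2 rose and Fosl1 fell, while Fosb, Fosl2, Jund and Atf3 did not pass the test. With cell lines as replicates (the 3 clones against the wild-type and Btbd7 KO lines together) Jun and Egr1 passed, and Fos, Junb, Ier2 and Fosl1 did not (adjusted p of 0.0899, 0.0563, 0.291 and 0.19 in edgeR). All 10 members passed the filter on low counts. By edgeR's quasi-likelihood test with Benjamini-Hochberg adjustment, 5 of 10 were called higher and 1 lower at an adjusted p under 0.05, where 16.2% of the 15297 genes tested were called higher and 19.9% lower. The median log2 fold change of the members was 0.47, beside -0.0057 over all genes tested. Without TMM scaling all genes split into 3229 higher and 2005 lower in place of 2474 and 3046.

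**Figure D1:**
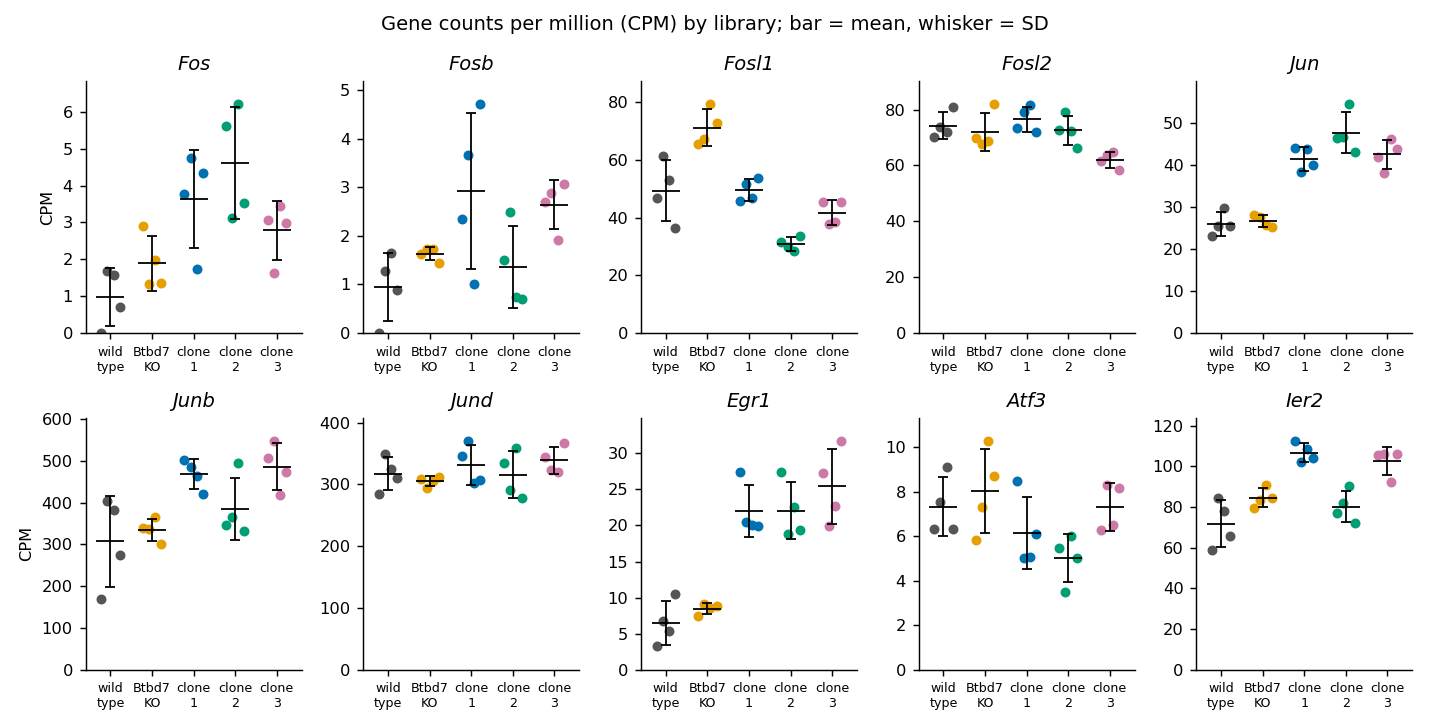
Gene-level CPM (y axis, linear, from 0) in each library, by group on the x axis, for the 10 members; points are libraries, bars the group mean and whiskers the SD. Jun and Egr1 are the 2 members in which every library of the 3 clones lies above every wild-type and every Btbd7 KO library, and 1 wild-type library, replicate 1, is at 0 for Fos and Fosb.

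Among the FOS genes, Fos (ENSMUSG00000021250.13, chromosome 12, 85473890 to 85477273, plus strand, GRCm38) encodes the classical partner of JUN and is the best known immediate early gene. Its level was 0, 1.68, 1.57 and 0.704 CPM in wild-type replicates 1 to 4, and the 0 count in replicate 1 allows up to 0.195 CPM, a limit that covers counting error only. Clone 1 had 3.78, 4.74, 1.74 and 4.33 CPM, clone 2 had 5.62, 3.13, 6.22 and 3.52, and clone 3 had 3.06, 1.63, 3.44 and 3.00. Every library of clones 1 and 2 lay above wild type, whereas clone 3 overlapped it by 1 library. The log2 fold change in the mean of the clones was 1.86 (SE 0.46, adjusted p = 0.00242 in edgeR), resting on 0 to 29 counts per wild-type library, and without wild-type replicate 1 it was 1.48 (adjusted p = 0.000551 in edgeR). The Btbd7 KO libraries, at 2.89, 1.33, 1.99 and 1.35 CPM, overlapped wild type and clones 1 and 3 and lay below clone 2, and the 0.94 difference from wild type (SE 0.54) did not pass the test (adjusted p = 0.256 in edgeR).

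Fosb (ENSMUSG00000003545.3, chromosome 7, 19302696 to 19310051, minus strand), a close relative of Fos, was counted 0 to 22 times per wild-type library. Levels ran from 0 to 1.64 CPM in wild type, 1.44 to 1.74 in Btbd7 KO, 1.01 to 4.71 in clone 1, 0.691 to 2.49 in clone 2 and 1.91 to 3.07 in clone 3. Clone 3 was the one clone whose libraries all lay above wild type, while the call of the test went to clone 1. On average the log2 fold change was 1.21 (SE 0.50, adjusted p = 0.0635 in edgeR), and 0.82 (adjusted p = 0.0927 in edgeR) without wild-type replicate 1. DESeq2, at 1.25 and an adjusted p of 0.0191, called it.

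Fosl1 (ENSMUSG00000024912.6, chromosome 19, 5447547 to 5455946, plus strand) encodes FRA1, the FOS protein typical of epithelial and migrating cells with sustained MAP kinase activity. Wild-type libraries had 46.7, 61.3, 52.9 and 36.5 CPM and Btbd7 KO libraries 65.4, 67.1, 79.4 and 72.9. Clone 1 had 45.8, 51.6, 46.9 and 53.7 CPM, clone 2 had 31.4, 29.8, 28.4 and 33.8, and clone 3 had 45.3, 37.7, 38.6 and 45.4. All Btbd7 KO libraries lay above wild type, all clone 2 libraries below it, and clones 1 and 3 within its range. Averaged over clones the log2 fold change was -0.30 (SE 0.092, adjusted p = 0.0116 in edgeR), but the call was lost without wild-type replicate 2 (-0.18, adjusted p = 0.129 in edgeR) and without replicate 3 (-0.26, adjusted p = 0.0515 in edgeR). Without TMM scaling it was -0.22 (adjusted p = 0.0599 in edgeR). Fosl1 shares bases with Ccdc85b on the opposite strand, which rose by 0.39 (SE 0.13, adjusted p = 0.0249 in edgeR), and the strand setting of the counting is not given in the sources used here.

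Fosl2 (ENSMUSG00000029135.10, chromosome 5, 32135801 to 32157842, plus strand) encodes FRA2, the other long-lived FOS protein. It stood at 70.0 to 80.9 CPM in wild type, 67.8 to 82.0 in Btbd7 KO, 71.96 to 81.5 in clone 1, 66.2 to 79.1 in clone 2 and 58.4 to 64.9 in clone 3. Clone 3 alone lay below every wild-type library, by 0.26 on the log2 scale (log2 fold change -0.26, SE 0.076, adjusted p = 0.011 in edgeR), a call lost without wild-type replicate 4 (-0.21, adjusted p = 0.0597 in edgeR). In the mean of the clones the difference was -0.083 (SE 0.061, adjusted p = 0.308 in edgeR).

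Of the JUN genes, Jun (ENSMUSG00000052684.4, chromosome 4, 95049034 to 95052222, minus strand), whose protein activates its own promoter through the TGACATCA site printed above, separated the groups fully. Wild type had 23.1, 25.4, 29.8 and 25.6 CPM and Btbd7 KO 28.1, 27.7, 25.7 and 25.2. The clones had 44.0, 38.2, 43.7 and 39.9 (clone 1), 46.5, 46.6, 54.5 and 43.1 (clone 2) and 41.8, 38.2, 46.1 and 43.7 CPM (clone 3), so the lowest clone library exceeded the highest control library. The log2 fold change was 0.76 (SE 0.080, a 1.69-fold level, adjusted p = 5.34e-08 in edgeR). Junos, an antisense RNA gene whose bases overlap the start of Jun, also rose, by 1.79 (SE 0.36, adjusted p = 0.000297 in edgeR), from 1.12 ± 0.76 CPM in wild type to 4.48 ± 1.26, 4.23 ± 1.76 and 3.20 ± 0.69 in clones 1 to 3 (SD, n = 4 each). The PROMPT region named for Junos rose by 0.68 (SE 0.099, adjusted p = 2.91e-08 in edgeR), a change close in size to that of the Jun gene, and without the strand setting reads of the partners cannot be told apart.

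Junb (ENSMUSG00000052837.6, chromosome 8, 84974484 to 84978718, minus strand), a JUN protein that often restrains proliferation, varied more. Wild-type replicate 1 had 168 CPM and the others 404, 382 and 275. Clone 1 had 503, 485, 463 and 420 CPM, clone 2 had 347, 367, 494 and 333, and clone 3 had 507, 548, 417 and 473. Clones 1 and 3 lay above wild type in every library and clone 2 overlapped it. The log2 fold change was 0.53 (SE 0.14, adjusted p = 0.00377 in edgeR) and was 0.35 (adjusted p = 0.00134 in edgeR) without wild-type replicate 1. Prdx2, which overlaps Junb on the opposite strand at 324 ± 37.2 CPM in wild type (SD, n = 4), did not pass the test (0.048, SE 0.058, adjusted p = 0.554 in edgeR).

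Jund (ENSMUSG00000071076.6, chromosome 8, 70698949 to 70700616, plus strand), the JUN protein that is present in resting cells and little induced by serum, did not pass the test. Its levels were 284 to 349 CPM in wild type, 294 to 312 in Btbd7 KO, 302 to 371 in clone 1, 278 to 359 in clone 2 and 320 to 368 in clone 3. The log2 fold change in the mean of the clones was 0.050 (SE 0.064, adjusted p = 0.586 in edgeR), with a 95% interval from -0.076 to 0.18.

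Egr1 (ENSMUSG00000038418.7, chromosome 18, 34859823 to 34864984, plus strand) was the other member that separated the groups fully. It had 3.25, 6.71, 5.38 and 10.5 CPM in wild type and 7.41, 9.09, 8.56 and 8.78 in Btbd7 KO. Clone 1 had 27.3, 20.4, 20.1 and 19.9 CPM, clone 2 had 27.4, 18.8, 22.6 and 19.3, and clone 3 had 27.3, 19.96, 22.7 and 31.8. The lowest clone library stood well above the highest control library, and the log2 fold change was 1.83 (SE 0.20, a 3.54-fold level, adjusted p = 7.61e-08 in edgeR). Over all genes tested, 6.01% had every clone library above every wild-type library, a share that for the members was 2 of 10.

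Ier2 (ENSMUSG00000053560.5, chromosome 8, 84661331 to 84662852, minus strand, coordinates from a different version of the same gene model) had 58.9, 84.4, 78.1 and 65.9 CPM in wild type and 79.4, 83.4, 90.7 and 84.6 in Btbd7 KO. Clone 1 had 113, 102, 108 and 104 CPM, clone 2 had 76.9, 81.9, 90.2 and 71.9, and clone 3 had 106, 106, 92.2 and 106. Clones 1 and 3 lay above all control libraries and clone 2 overlapped them. The log2 fold change was 0.42 (SE 0.075, adjusted p = 0.000102 in edgeR). Atf3 (ENSMUSG00000026628.13, chromosome 1, 191170296 to 191218039, minus strand), the member most tied to stress, ran from 6.31 to 9.12 CPM in wild type and 5.01 to 8.46, 3.49 to 5.99 and 6.26 to 8.29 in clones 1, 2 and 3, and its difference of -0.26 (SE 0.18) did not pass the test (adjusted p = 0.257 in edgeR).

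The clones were then compared with wild type one by one. In clone 1, Fos, Fosb, Jun, Junb, Egr1 and Ier2 rose and none fell (6 of 10 higher, where 16.7% of all genes were called higher and 19.1% lower). In clone 2, Fos, Jun and Egr1 rose and Fosl1 fell by 0.68 (3 higher and 1 lower, beside 16.1% and 16.2% of all genes). In clone 3, Fos, Jun, Junb, Egr1 and Ier2 rose and Fosl2 fell (5 higher and 1 lower, beside 14.0% and 15.3%). Fos, Jun and Egr1 were called in every clone. With only the 2 groups compared in the fit, Fos did not pass in clone 1 (adjusted p = 0.101 in edgeR) or clone 3 (adjusted p = 0.212 in edgeR), Junb did not pass in clone 1 or clone 3 (adjusted p of 0.0511 and 0.0561 in edgeR), and Fosb did not pass in clone 1 (adjusted p = 0.171 in edgeR). Their log2 fold changes in clones 1, 2 and 3 were 1.88, 2.21 and 1.50 for Fos, 0.68, 0.88 and 0.71 for Jun, and 1.75, 1.75 and 1.97 for Egr1. The Fos call in clone 3 (adjusted p = 0.0347 in edgeR) was lost without wild-type replicate 4 (adjusted p = 0.081 in edgeR) and without clone 3 replicate 1, 3 or 4 (adjusted p of 0.0741, 0.0775 and 0.0712 in edgeR), and the Fosb call in clone 1 (adjusted p = 0.0333 in edgeR) without wild-type replicate 4 or clone 1 replicate 2 or 4 (adjusted p of 0.0598, 0.0776 and 0.129 in edgeR). In clone 2, Junb was called without wild-type replicate 2 or 3 (0.49 and 0.45), Ier2 without wild-type replicate 2 (0.25) and Atf3 as lower without wild-type replicate 1 (-0.58), and in clone 3 Fosl1 was called as lower without wild-type replicate 4 (-0.35).

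Whether the clones differ from each other was tested with 2 degrees of freedom. Fosl1 (adjusted p = 0.000261 in edgeR), Ier2 (adjusted p = 0.0018 in edgeR) and Fosl2 (adjusted p = 0.00936 in edgeR) differed among clones, 3 of 10 members beside 28.5% of all genes. Fosl1 was 0.69 higher in clone 1 than in clone 2 and 0.45 lower in clone 2 than in clone 3 (log2 fold changes of 0.69 and -0.45, adjusted p of 0.000108 and 0.00824 in edgeR). Over all genes, 10.2% were called higher in clone 1 than in clone 2, and 9.39% higher and 8.46% lower in clone 2 than in clone 3. Ier2 was 0.41 higher in clone 1 than in clone 2 (adjusted p = 0.00148 in edgeR), and clone 2 stood below clone 3 (-0.35, adjusted p = 0.00591 in edgeR). Fosl2 was higher in clones 1 and 2 than in clone 3, by 0.30 and 0.23 (adjusted p of 0.00781 and 0.0383 in edgeR), where 7.42% of all genes were called higher in clone 1 than in clone 3. Clone 2 thus had the lowest Fosl1 and Ier2 of the clones. It also had the lowest Zcchc8 RNA, but a link was not tested. Not every member was lowest there, as mean Fos and Jun were highest in clone 2 (4.62 and 47.7 CPM), without passing the test among clones. With every library thinned to the lowest gene total, the same 3 genes were called (adjusted p of 0.000545, 0.000557 and 0.00546 for Fosl1, Ier2 and Fosl2 in edgeR), but Fosl2 in clone 2 against clone 3 did not pass (0.20, adjusted p = 0.061 in edgeR).

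Btbd7 KO served as the edited control. Against wild type only Fosl1 was called, 1 of 10 members, with a log2 fold change of 0.53 (SE 0.11, adjusted p = 0.00175 in edgeR), where 7.73% of all genes were called higher. Leaving out wild-type replicate 2 added Ier2 (0.32, adjusted p = 0.0107 in edgeR), and leaving out wild-type replicate 4 added Egr1 (0.73, adjusted p = 0.0245 in edgeR). Set directly against Btbd7 KO, the mean of the clones was higher in Jun (0.71, SE 0.080, adjusted p = 8.73e-08 in edgeR), Egr1 (1.45, SE 0.19, adjusted p = 1.22e-06 in edgeR) and Junb (0.41, SE 0.14, adjusted p = 0.0196 in edgeR). Fosl1 was lower (-0.83, SE 0.090, adjusted p = 4.88e-08 in edgeR), with all clone libraries below all Btbd7 KO libraries. These 3 higher and 1 lower calls stand beside 18.8% and 22.2% of all genes. Fos (0.92, SE 0.43, adjusted p = 0.09) and Ier2 (0.18, SE 0.075, adjusted p = 0.0512) did not pass in edgeR. Both passed in the fit without wild-type replicate 1 (0.93 and 0.20, adjusted p of 0.00714 and 0.00648 in edgeR), and Junb did not pass without Btbd7 KO replicate 4 (0.36, adjusted p = 0.0797 in edgeR).

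The PROMPT regions of the members were compared in the 19 libraries of their table, scaled with the gene totals. The RNA upstream of Fos, Fosl1, Fosl2, Jun, Junb, Jund, Egr1 and Ier2 rose in the mean of the clones, by 1.37 (Fosl2) to 3.97 (Fos) on the log2 scale. In Btbd7 KO no member's PROMPT region was called. The PROMPT region of Atf3 held 0 to 3 counts per library and did not pass the filter, and 8 of the other 9 were called higher and 0 lower, where 39.9% of the 17655 regions tested were called higher and 3.31% lower. The PROMPT regions of Fos, Fosb, Fosl1, Fosl2 and Egr1 would not have passed the filter on the control libraries alone. They entered the test through the clone libraries, so their calls are not separate from the filter. How many of all regions entered in this way was not counted. The members' median log2 fold change was 2.30, beside 0.45 over all regions tested. Scaling within the PROMPT table moved that overall median to 0.015 and the split of all calls from 7036 higher and 585 lower to 5054 and 3665. The rise of Fosl2 did not pass under it (0.98, adjusted p = 0.118 in edgeR), whereas the other 7 did, with log2 fold changes of 1.60 (Ier2) to 3.59 (Fos).

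**Figure D2:**
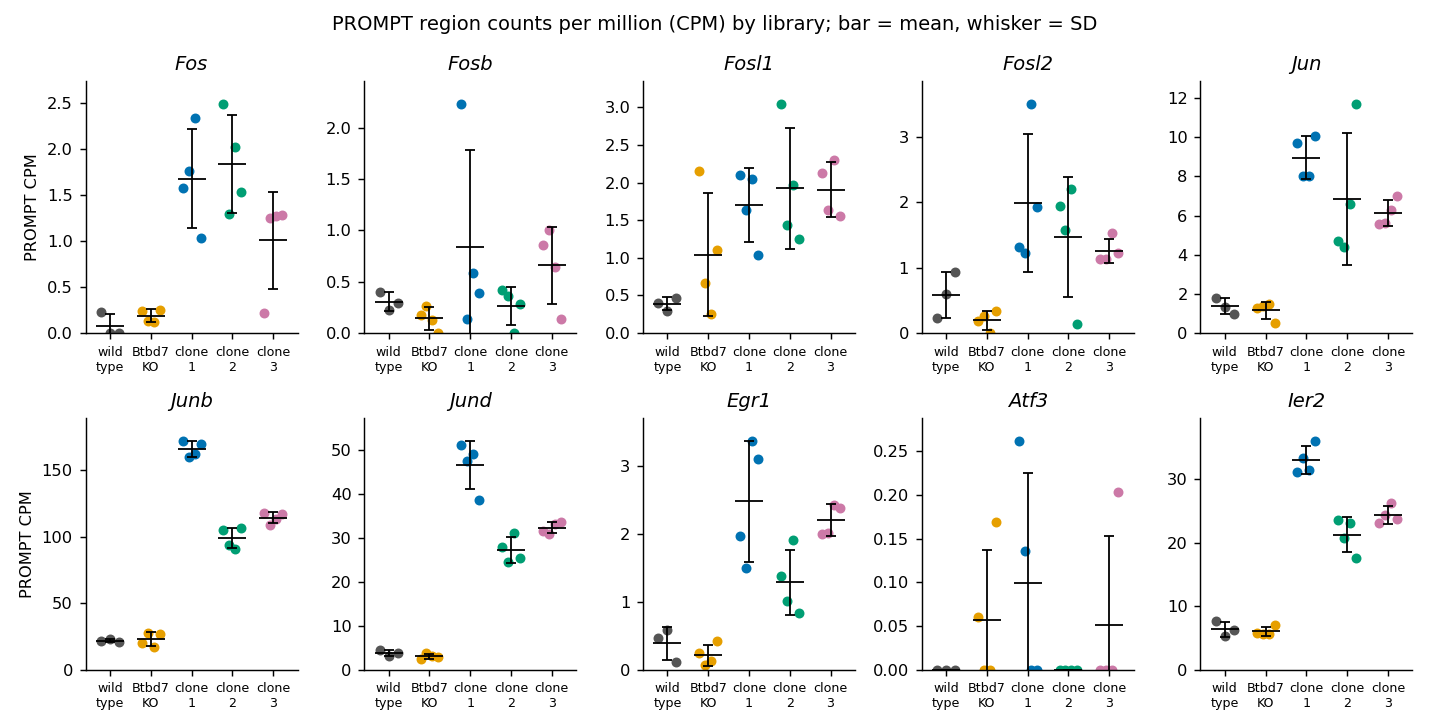
PROMPT-region CPM (y axis, linear, from 0) in each of 19 libraries, by group on the x axis, for the 10 members; points are libraries, bars the group mean and whiskers the SD, which stop at the axis where they would pass below 0. Junb, Jund and Ier2 show clone 1 above clones 2 and 3 in every library, and all 3 clones above both control groups.

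Junb had the most abundant PROMPT region, at 21.6, 23.3 and 21.1 CPM in wild-type replicates 2 to 4 and 20.1, 27.9, 16.8 and 27.0 in Btbd7 KO. Clone 1 had 172, 160, 162 and 170 CPM, clone 2 had 105, 94.2, 91.1 and 107, and clone 3 had 118, 109, 113 and 117. The clones overlapped neither the controls nor each other, with clone 1 highest and clone 2 lowest. In the mean of the clones the log2 fold change was 2.49 (SE 0.10, a 5.62-fold level, adjusted p = 7.09e-30 in edgeR), beside 0.53 for the Junb gene. The gene value was 0.35 without wild-type replicate 1, which the PROMPT counts lack.

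Jund showed the widest gap between gene and PROMPT region. Its PROMPT region had 4.44, 3.18 and 3.73 CPM in wild type and 2.34, 3.87, 3.08 and 2.79 in Btbd7 KO. It reached 51.0, 47.5, 49.1 and 38.6 CPM in clone 1, 28.0, 24.4, 31.1 and 25.3 in clone 2, and 31.6, 30.8, 33.2 and 33.6 in clone 3. Every clone library exceeded every control library several times over, and the log2 fold change was 3.17 (SE 0.14, a 9.02-fold level, adjusted p = 4.59e-28 in edgeR), while that of the gene was 0.050. The Jund gene and its PROMPT region thus gave very unequal values. The gene value rests on 20 libraries and the PROMPT value on 19, and without wild-type replicate 1 the gene value was 0.019.

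Ier2 had 7.67, 5.32 and 6.24 CPM of PROMPT RNA in wild type and 5.75, 5.67, 5.67 and 7.03 in Btbd7 KO. Clone 1 had 31.2, 33.3, 31.5 and 36.1 CPM, clone 2 had 23.7, 20.7, 23.2 and 17.7, and clone 3 had 23.1, 24.3, 26.3 and 23.8. Its log2 fold change was 2.00 (SE 0.13, adjusted p = 2.74e-20 in edgeR). For Jun, wild type had 1.79, 1.33 and 0.991 CPM, Btbd7 KO 1.26, 1.40, 1.48 and 0.508, clone 1 9.71, 8.02, 8.03 and 10.1, clone 2 4.71, 4.39, 6.61 and 11.7, and clone 3 5.54, 5.64, 6.26 and 6.99. No clone library of Jun or Ier2 came within the control range, and the log2 fold change of Jun was 2.39 (SE 0.27, adjusted p = 3.41e-11 in edgeR). Junos runs through bases upstream of Jun, and reads of Junos and of the Jun PROMPT region cannot be told apart here. On the opposite strand, Gm26664 lies 2276 bp upstream of the Ier2 start and Gm10463 lies 2630 bp upstream of the Fosl2 start. Whether their reads fall in the Ier2 and Fosl2 PROMPT regions is not known, because the extent of the regions is not given.

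The other PROMPT regions rested on few counts. Fos had 4, 0 and 0 counts in wild type, 1 to 4 in Btbd7 KO and 8 to 16, 18 to 35 and 3 to 19 in clones 1, 2 and 3. The 0 counts allow up to 0.222 and 0.175 CPM, and the log2 fold change was 3.97 (SE 0.74, adjusted p = 7.32e-06 in edgeR). The size rests on wild-type replicate 2, since without it all wild-type counts are 0 and the fitted value, then set by the prior count, was 7.07. Egr1 had 2 to 8 counts in wild type and 10 to 35 in the clones, with a log2 fold change of 2.30 (SE 0.50, adjusted p = 9.48e-05 in edgeR). Fosl1 rose by 2.18 (SE 0.49, adjusted p = 0.000148 in edgeR) from 4 to 8 counts in wild type, but it also stood at 2 to 36 counts in Btbd7 KO (1.46, SE 0.55, adjusted p = 0.141 in edgeR). Fosl2 rose by 1.37 (SE 0.53, adjusted p = 0.0312 in edgeR), a call lost without wild-type replicate 2 or 3 (0.98 and 1.38) and without replicate 3 of clone 1 or of clone 2 (1.24 and 1.27). Fosb, at 3 to 7 counts in wild type and 0 to 17 in the clones, had a difference of 0.70 (SE 0.77, adjusted p = 0.499 in edgeR).

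**Figure D3:**
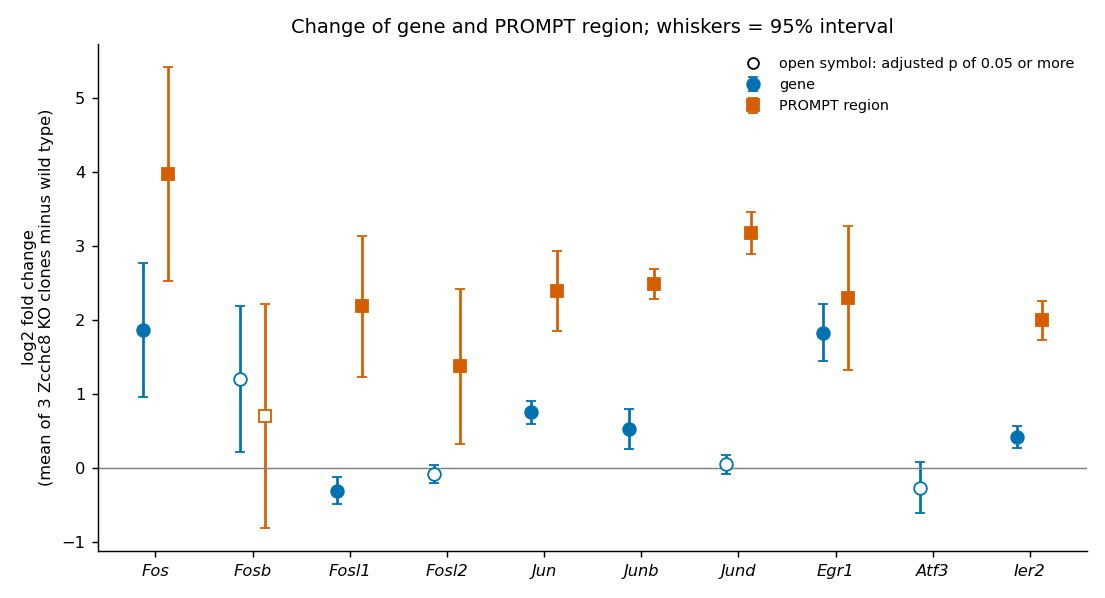
Log2 fold change of the mean of the 3 Zcchc8 KO clones against wild type (y axis) for each member (x axis), with the gene as circles and its PROMPT region as squares; whiskers are 95% intervals and open symbols did not pass the test. Jund has a gene value of 0.050 beside a PROMPT value of 3.17, whereas Egr1 has 1.83 and 2.30, and Atf3 has no PROMPT value because its counts did not pass the filter. Gene values rest on 20 libraries and PROMPT values on 19, which lack wild-type replicate 1. Without that library the gene values were 0.019 for Jund and 1.62 for Egr1.

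Each clone gave a similar count of PROMPT regions. In clone 1, 8 of 9 members were higher (39.3% of all regions), in clone 2, 7 of 9 (36.0%), and in clone 3, 7 of 9 (36.7%), and 0 were lower (3.79%, 3.09% and 2.41% of all regions). Fosl2 was the member called in clone 1 (1.75, adjusted p = 0.0162 in edgeR) but not in clone 2 (1.30, adjusted p = 0.082 in edgeR) or clone 3 (1.08, adjusted p = 0.164 in edgeR). Its clone 1 call was lost without wild-type replicate 2 or clone 1 replicate 3 (1.35 and 1.34), while in clone 2 it was called without wild-type replicate 4 or clone 2 replicate 4 (1.83 and 1.69). The clone 2 call of Egr1 (1.73, adjusted p = 0.0091 in edgeR) was lost without wild-type replicate 4 (1.29) or clone 2 replicate 3 (1.44). Every clone library lay above every wild-type library for Fosl1, Jun, Junb, Jund, Egr1 and Ier2, 6 members, where 25.5% of all regions did so. In these counts, Fos, Fosl1, Fosl2 and Egr1 had entered the test through the clone libraries.

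Among clones the PROMPT regions of Junb (adjusted p = 2.11e-08), Jund (adjusted p = 4.26e-06) and Ier2 (adjusted p = 0.000363) differed in edgeR's test, 3 of 9 beside 10.9% of all regions. All 3 were highest in clone 1, by 0.74, 0.77 and 0.64 on the log2 scale over clone 2 (adjusted p of 2.24e-08, 2.36e-06 and 0.000204 in edgeR) and by 0.54, 0.53 and 0.44 over clone 3 (adjusted p of 6.9e-05, 0.00256 and 0.0224 in edgeR), where 5.75% and 3.32% of all regions were called higher in clone 1. Clones 2 and 3 did not pass against each other in any of the 9 (4.39% of all regions). After thinning to equal depth the lead of clone 1 over clone 2 was 0.75, 0.81 and 0.65, and over clone 3 it was 0.52, 0.56 and 0.42. Clone 1, with the highest PROMPT levels of these 3 members, had Zcchc8 RNA near wild type, and clone 2 had the least Zcchc8 RNA. A link between Zcchc8 RNA and PROMPT level was not tested.

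In Btbd7 KO against wild type, 0 of the members' 9 PROMPT regions were called in edgeR, 1 at an unadjusted p under 0.05 (Fosl1) and 0 in DESeq2, where 3.04% of all regions were called. At these counts the estimates were loose, from -1.43 (SE 0.72) for Fosl2 to 1.46 (SE 0.55) for Fosl1, so the lack of a call does not show equal levels. Against Btbd7 KO the mean of the clones was higher in 7 of 9 (45.6% of all regions), all but Fosb (1.69, SE 0.80, adjusted p = 0.0705 in edgeR) and Fosl1 (0.72, SE 0.37, adjusted p = 0.104 in edgeR). Of the 7, Fos, Fosl2 and Egr1 had entered the test through the clone libraries. Without Btbd7 KO replicate 1, which held 36 Fosl1 PROMPT counts, Fosl1 passed (1.37, adjusted p = 0.0097 in edgeR), and Fosb passed without clone 2 replicate 3 or clone 3 replicate 4 (1.85 and 1.81).

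A ratio of PROMPT to gene counts within each library does not depend on how libraries are scaled. Where counts are few, the 0.5 added to each count makes the ratio depend on depth. On the log2 scale, after adding 0.5 to each count, this ratio was -6.43 ± 0.19 for Jund in wild type (SD, n = 3) and -2.85 ± 0.18, -3.55 ± 0.059 and -3.39 ± 0.083 in clones 1, 2 and 3 (SD, n = 4 each). For Junb it was -3.98 ± 0.27 in wild type (SD, n = 3) and -1.50 ± 0.12, -1.96 ± 0.36 and -2.08 ± 0.19 in the clones, and for Ier2 -3.56 ± 0.25 (SD, n = 3) and -1.70 ± 0.15, -1.93 ± 0.15 and -2.07 ± 0.18. Jun went from -4.29 ± 0.44 (SD, n = 3) to -2.22 ± 0.19, -2.92 ± 0.70 and -2.79 ± 0.12. So where both gene and PROMPT region rose, as in Jun, Junb and Ier2, the region rose further. Egr1 was different, with -4.35 ± 1.61 in wild type (SD, n = 3) and -3.18 ± 0.65, -4.12 ± 0.39 and -3.48 ± 0.29 in the clones, which overlap.

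**Figure D4:**
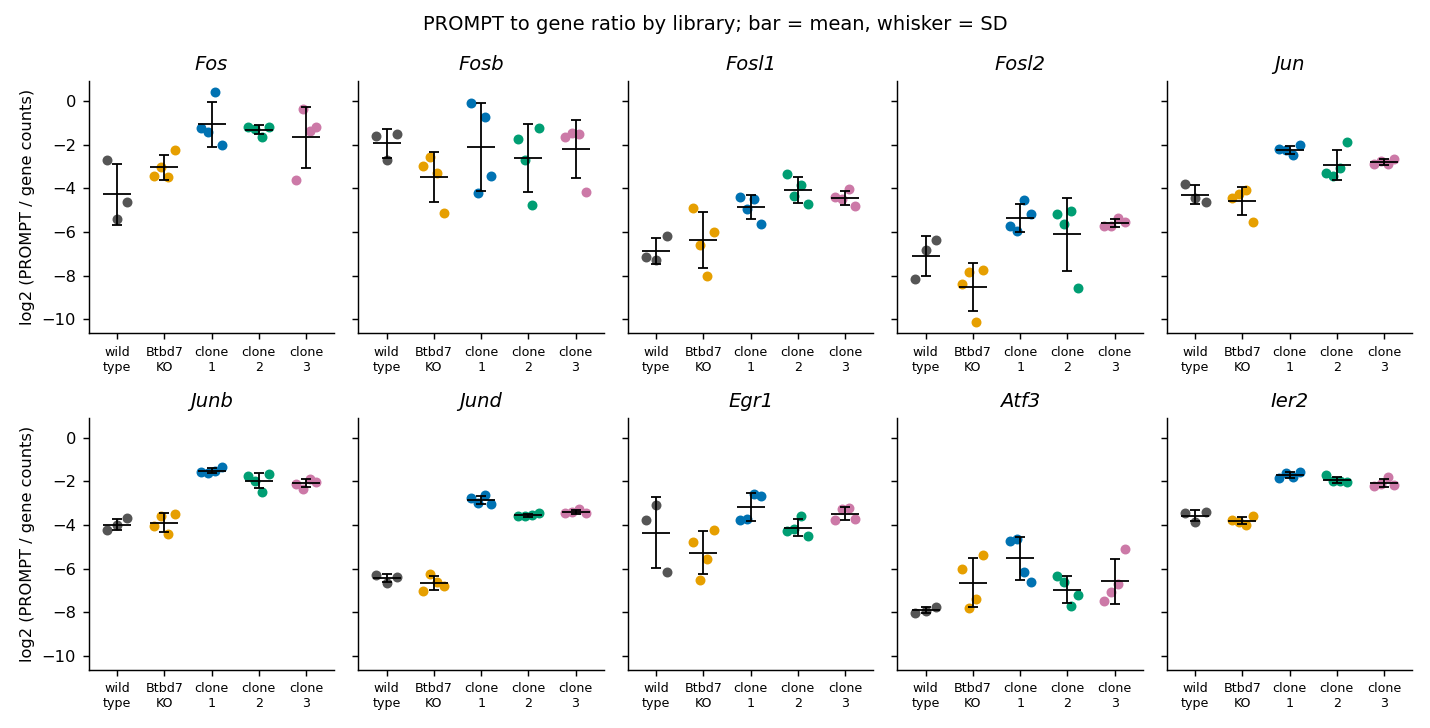
Log2 ratio of PROMPT to gene counts (y axis, 0.5 added to each count) in each of 19 libraries, by group on the x axis, for the 10 members; points are libraries, bars the group mean and whiskers the SD. Jund moves from -6.43 in wild type to -2.85 in clone 1, while the Egr1 ratios of the clones overlap those of wild type.

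Two-sided exact permutation tests of these ratios cannot go below p = 0.0571 with 4 libraries against 3, and that value was reached in all 3 clones by Fosl1, Jun, Junb, Jund, Atf3 and Ier2, the 6 members whose ratios lay above wild type in every clone library (0.104 after adjustment over 40 tests). The Atf3 ratio rests on 0 to 3 PROMPT counts and so on the added 0.5. In clone 2, as in wild type, every Atf3 PROMPT count was 0. The higher Atf3 ratio of clone 2 thus reflects its lower gene counts, not more PROMPT RNA. Against Btbd7 KO, a comparison added after the data were seen, 4 libraries face 4 and the smallest exact p is 0.0286 (0.0429 after adjustment over 30 tests). Jun, Junb, Jund and Ier2 reached it in every clone, and Fos, Fosl1, Fosl2 and Egr1 in 2 of 3 clones. Ratios were computed for the members only, so no share over all features stands beside these counts, and whether the members stand out was not tested.

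Whether members varied together among libraries of 1 group was asked from deviations of log2(CPM + 0.5) from the group mean over 20 libraries. The deviations of Junb and Ier2 correlated (Pearson r = 0.89, permutation p = 0.0003, adjusted over 45 pairs 0.0135, and Spearman rho = 0.84, permutation p = 0.00054, adjusted 0.0243). Without the 2 libraries farthest from the median Junb deviation r was 0.81, and without wild-type replicate 1, which was lowest in both, r was 0.86 (adjusted permutation p = 0.0436) and rho 0.81 (adjusted permutation p = 0.0535). No other pair passed, the next being Fos and Jund (r = 0.69, permutation p = 0.00279, adjusted 0.0628). Deviations of Fos and Fosb gave r = 0.62, and 0.32 without wild-type replicate 1 (adjusted permutation p of 0.283 and 0.757). The SD of the deviations was 0.60 for Fos and 0.63 for Fosb, on low counts, 0.35 for Egr1 and 0.30 for Junb, against 0.097 for Fosl2, 0.12 for Jun and Jund and 0.14 for Ier2.

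**Figure D5:**
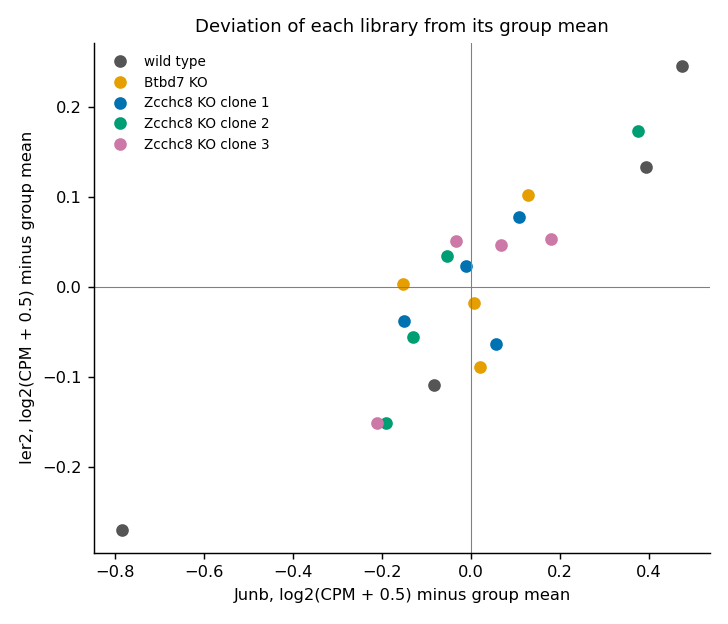
Deviation of Ier2 from its group mean (y axis) against that of Junb (x axis), both as log2(CPM + 0.5), for 20 libraries coloured by group. The libraries line up (r = 0.89), and the point at the lower left is wild-type replicate 1.

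The patterns most like those of Egr1, Jun and Fosl1, the 3 members with the widest range of group means at 50 or more mean counts, were sought as a description. Pearson r of log2(CPM + 0.5) was taken over 20 libraries within the 10777 genes with 50 or more mean counts. The member itself and genes without a symbol were left out of the ranking. For Egr1 these were the non-coding genes Gm14488 (r = 0.97), 4933406P04Rik (r = 0.97, 1.21 CPM in wild type and 15.5, 15.6 and 14.5 in the clones) and AC133451.1 (r = 0.97). For Jun they were Gm9958 (r = 0.97, 4.49 CPM in wild type and 24.4, 27.2 and 20.8 in the clones), Gm15706 (r = 0.96) and 2810402E24Rik (r = 0.95), of which Gm9958 is annotated as protein-coding, Gm15706 as a lincRNA and 2810402E24Rik as antisense. The genes most like Fosl1 were protein-coding: Ccbe1 (r = 0.93, 60.8 CPM in wild type, 94.9 in Btbd7 KO and 37.4 in clone 2), Map3k9 (r = 0.92) and Eif6 (r = 0.91).

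Among other genes of the early response more fell than rose. Of 50 further immediate and delayed early genes, 47 were tested, 4 rose and 21 fell in the mean of the clones (median log2 fold change -0.16, beside -0.0057 over all genes). Against Btbd7 KO 6 of them were higher in the clones and 22 lower. Egr2, a relative of Egr1, rose by 1.51 (SE 0.31, adjusted p = 0.000416 in edgeR), from 1.37 ± 0.38 CPM in wild type to 5.39 ± 1.43, 3.82 ± 1.31 and 2.95 ± 0.70 in the clones (SD, n = 4 each). Fst, the activin antagonist follistatin, fell by 1.17 (SE 0.17, adjusted p = 7.57e-06 in edgeR), the EGF receptor ligand Ereg fell by 0.64 (SE 0.085, adjusted p = 1.92e-06 in edgeR) and the synaptic scaffold gene Homer1 fell by 0.41 (SE 0.085, adjusted p = 0.000445 in edgeR).

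Upstream, 37 of 38 MAP kinase and serum response factor pathway genes were tested, of which 4 rose and 15 fell (median -0.055). Against Btbd7 KO 4 of these were higher in the clones and 14 lower. The receptor genes Met and Egfr fell by 0.64 and 0.39 (adjusted p of 2.26e-10 and 2.12e-05 in edgeR), Met from 575 ± 55.7 CPM in wild type to 391 ± 17.2, 347 ± 25.7 and 371 ± 7.13 in the clones (SD, n = 4 each), and the JUN kinase gene Mapk9 fell by 0.36 (SE 0.069, adjusted p = 0.000213 in edgeR). Among 17 tested MAP kinase feedback inhibitors 3 rose and 6 fell (median -0.080), with Spred2 higher by 0.35 (SE 0.057, adjusted p = 3.23e-05 in edgeR). Against Btbd7 KO 3 of the inhibitors were higher in the clones and 3 lower (median 0.049). Of 19 tested AP-1 partners outside the members 2 rose and 4 fell (median -0.073), and of 16 decay and co-repressor regulators 1 rose and 3 fell (median -0.040). In Btbd7 KO against wild type, 2 of the AP-1 partners were also higher and 4 lower. Against Btbd7 KO the clones had 5 AP-1 partners higher and 3 lower (median 0.038), and 3 regulators higher and 3 lower.

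Downstream, 18 of 28 genes described as AP-1 targets were tested, and 2 rose and 8 fell (median -0.23). Against Btbd7 KO 1 of them was higher in the clones and 10 lower. Hmox1, the haem-degrading enzyme heme oxygenase 1, fell by 0.61 (SE 0.079, adjusted p = 1.31e-06 in edgeR), from 231 ± 43.9 CPM in wild type to 154 ± 18.2, 159 ± 13.1 and 141 ± 10.6 in the clones (SD, n = 4 each). Heat shock genes, a sign of stress, summed to 1590 to 1815 CPM in wild type and 1442 to 1622 CPM over the clones, with 1 of 8 higher and 3 lower. Against Btbd7 KO 1 heat shock gene was higher in the clones and 4 lower. Of 14 tested salivary epithelial markers 1 rose and 6 fell, among them the keratin genes Krt7 by 0.59 and Krt18 by 0.46 (adjusted p of 0.000165 and 1.38e-05 in edgeR). Against Btbd7 KO 3 of these markers were higher in the clones and 6 lower. These lists were drawn up with earlier results of these data known, and their shares of calls are to be read against the 16.2% and 19.9% of all genes. For the clones against Btbd7 KO the shares of all genes were 18.8% higher and 22.2% lower.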

How the data were processed

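Total RNA was prepared with a stranded kit, read quality was checked with FastQC and reads were aligned with STAR 2.7.3a, per the submitters' processing notes and the labels' protocols. The authors deposited raw counts per gene and per PROMPT region, and the counting tool, its strand setting and the extent of a PROMPT region are not given in the sources used here. Of 55471 gene IDs, 54573 matched GENCODE M21 with their version and 55230 without it, and no column was left unmapped. Counts were tested with edgeR 4.0.16 (quasi-likelihood test, 5 groups in 1 fit, TMM scaling, filterByExpr, Benjamini-Hochberg adjustment over all features, called at an adjusted p under 0.05), in R 4.3.3. PROMPT counts were scaled with the library sizes and TMM factors of the gene table. In simulated data for the mean of the clones against wild type, 89% of 2-fold and 97% of 4-fold changes among 15297 genes and 73% and 96% among 17655 PROMPT regions were recovered. Of the calls, 6.06% in genes and 3.43% in PROMPT regions were false. The simulation gave all features the same dispersion and no outlying library or line, so these rates need not hold for members with a wide spread, such as Fos and Fosb. Ratios and deviations were tested by permutation in Python 3.11.15 with scipy 1.17.1. DESeq2 1.42.0, other filters and scalings, equal depth, a replicate block, cell lines as replicates and leaving out each library were alternatives. From each gene list, up to 3 genes per direction are named, called in the mean of the clones and in each clone in 1 direction and not in Btbd7 KO. Of 5 genes that overlap a member, Junos, Ccdc85b and Prdx2 are described with it, while Gm11175, on the strand opposite Jund, did not pass the test (adjusted p = 0.456 in edgeR) and Gm24748, opposite Atf3, had 0 counts. The members and lists were chosen with earlier results of these data known. Replicate numbers did not pair libraries, and no 2 replicates agreed within sampling noise (chi-square over its degrees of freedom was 2.89 or more).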

Additional observations from a re-analysis of the deposited data

Results flagged for a closer look

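Single libraries stood apart from the other 3 of their group in 6 of 90 groups tested, where chance gives about 1 in 20. In gene counts, Fosl2 was 82.0 CPM in Btbd7 KO replicate 4, Egr1 was 27.3 CPM in clone 1 replicate 1 and Ier2 was 92.2 CPM in clone 3 replicate 3. In PROMPT counts, Fos was 0.213 CPM in clone 3 replicate 1, Atf3 was 0.204 CPM in clone 3 replicate 4 and Ier2 was 7.03 CPM in Btbd7 KO replicate 4. The Atf3 value is 3 counts where the other libraries of clone 3 had 0, so any count above 0 would have stood apart there.

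RNA levels differed among the 3 Zcchc8 KO clones, each 1 line, so that a differing knockout effect and line-to-line variation cannot be told apart, by edgeR's test with 2 degrees of freedom, for the Fosl1 gene (adjusted p = 0.000261), the Ier2 gene (adjusted p = 0.0018) and the Fosl2 gene (adjusted p = 0.00936). They also differed for the PROMPT regions of Junb (adjusted p = 2.11e-08), Jund (adjusted p = 4.26e-06) and Ier2 (adjusted p = 0.000363). The genes are 3 of 10 members, where 28.5% of all genes tested differed among clones, so the gene calls do not set the members apart. The PROMPT regions are 3 of 9, where 10.9% of all regions tested differed. Whether the members exceed that share was not tested.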

How the results depend on the processing

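With cell lines as replicates (3 clones against the wild-type and Btbd7 KO lines), 2 members were called higher and 0 lower, and Fos (1.33, adjusted p = 0.0899), Fosl1 (-0.57, adjusted p = 0.19), Junb (0.47, adjusted p = 0.0563), Ier2 (0.30, adjusted p = 0.291) and the Fosl1 PROMPT region (1.14, adjusted p = 0.0565) did not pass in edgeR. Without TMM, 0 members were called lower in the mean of the clones and 0 in clone 3. Of all 15296 genes tested without TMM, 3229 were called higher and 2005 lower in the mean of the clones. With only the groups compared in the fit, 3 were higher in clone 1, 3 higher in clone 3 and 0 lower in clone 3. The 19-library gene table and equal depth each gave 2 lower in clone 2, and equal depth gave 2 higher in Btbd7 KO. Against Btbd7 KO, 5 members were higher in DESeq2, without a filter, without TMM, with only the groups compared and in the 19-library table, and 2 were lower at equal depth. With a pseudocount of 0.1, 2 pairs of members correlated. Other shares over all genes at these settings are not given here, so the counts describe only which calls of members moved. The cause of these shifts was not tested.

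Directions reversed only for values that passed no test: Fosl1 in clone 1 (-0.0012 at equal depth), Fosl2 in clone 2 (0.054 without TMM), Jund in clone 2 (0.020 in DESeq2, 0.079 without TMM, 0.018 at equal depth), Atf3 in clone 3 (0.025 in DESeq2, 0.075 without TMM, 0.0092 with only the groups compared), Junb in Btbd7 KO (-0.071 in the 19-library table), Fosl2 against Btbd7 KO (0.00072 in DESeq2, 0.033 without TMM) and the Btbd7 KO PROMPT regions of Jun (0.21) and Junb (-0.056) at equal depth.

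Leaving out 1 library at a time, 2166 of 2248 values kept direction and call. Members called lower in the mean of the clones ranged from 0 to 1, higher in clone 2 from 3 to 5, lower in clone 2 from 1 to 2, higher in Btbd7 KO from 1 to 2, and, against Btbd7 KO, higher from 2 to 5 and lower from 1 to 2. Shares over all genes in these fits are not given here. Ranges that crossed 0 were -0.093 to 0.13 for Fosl1 in clone 1, -0.011 to 0.88 for Fosb, -0.068 to 0.039 for Fosl2 and -0.073 to 0.055 for Jund in clone 2, and -0.065 to 0.12 for Atf3 in clone 3. In Btbd7 KO they were -0.11 to 0.011 for Fosl2, -0.071 to 0.28 for Junb and -0.0065 to 0.26 for Atf3, and against Btbd7 KO -0.063 to 0.028 for Fosl2. In PROMPT regions they were -0.61 to 0.15 for Fosb in clone 2, and in Btbd7 KO -0.44 to 0.014 for Jun, -0.034 to 0.18 for Junb and -0.21 to 0.054 for Ier2.

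Same-numbered libraries shared only a number (correlation of deviations -0.20 to 0.33, and 5 libraries correlated best with their own number). With the replicate block, 5 members were higher and 1 lower in the mean of the clones, 4 higher in clone 3 and 4 higher against Btbd7 KO. No share over all genes is given here for that setting. Fos in clone 3 did not pass (1.50, adjusted p = 0.0508 in edgeR), Ier2 against Btbd7 KO passed (0.18, adjusted p = 0.0484 in edgeR), and Atf3 in clone 3 was 0.0082. Depth limits Fos, Fosb and the PROMPT regions of Fos, Fosb, Fosl1, Fosl2 and Egr1, which rest on 29 counts or fewer in each wild-type library.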
